A study of Mus musculus with 31 samples.

Results

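The messenger RNAs of 10 genes that encode AMPA and NMDA receptor subunits were measured by bulk RNA-seq in hippocampi of P301S tau transgenic and non-transgenic (Ntg) mice. The genes were taken as members of these receptor families and comprise 4 AMPA receptor genes (Gria1, Gria2, Gria3 and Gria4) and 6 NMDA receptor genes (Grin1, Grin2a, Grin2b, Grin2c, Grin2d and Grin3a), of 48795 genes in the hippocampal count table. All 10 passed the filter on low counts, which left 16453 genes. The 13 mice were 7 Ntg (3 females and 4 males) and 6 P301S animals (3 females and 3 males), with 1 library per mouse. Their age was 8 to 9 months in the labels and in the study's results. The study's methods give a later age for mice used in RNA-seq. P301S mice carry a human tau transgene with the P301S mutation, driven in this line by the prion protein promoter. The mouse numbers carry the prefix cGAS in the sample titles, but whether these 13 mice came from the cross with a Cgas deletion, and their Cgas genotype, is not given in the sources used here. Hippocampi were dissected and divided before RNA was isolated, so that a library represents part of a hippocampus with all of its cell types. A second table holds 18 libraries of primary microglia grown from neonatal cortex, in 6 groups of 3: wild-type and Cgas knockout cells, each given vehicle, HT-DNA (DNA of herring testis) or tau fibrils.

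AMPA and NMDA receptors are glutamate-gated cation channels of excitatory synapses, and each is an assembly of 4 subunits. AMPA receptors carry most fast excitatory transmission, and the GluA2 subunit encoded by Gria2 limits their calcium permeability. NMDA receptors need the obligatory GluN1 subunit encoded by Grin1 together with GluN2 or GluN3 subunits. They admit calcium when glutamate and depolarization coincide, and they start the long-term potentiation for which the hippocampus is the standard preparation. In the adult forebrain GluN2A and GluN2B (Grin2a and Grin2b) are the main partners of GluN1, whereas GluN2C (Grin2c) is best known from cerebellar granule cells and GluN2D (Grin2d) from interneurons and the brainstem. GluA4 (Gria4) is prominent in interneurons and cerebellum.

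In the GRCm38 build (GENCODE M21), the AMPA receptor genes lie at chr11:57011387-57330244 (Gria1), chr3:80681450-80802835 (Gria2), chrX:41400854-41678601 (Gria3) and chr9:4417896-4796234 (Gria4). The NMDA receptor genes lie at chr2:25291181-25319187 (Grin1), chr16:9567898-9995560 (Grin2a), chr6:135713233-136173511 (Grin2b), chr11:115249169-115267243 (Grin2c), chr7:45831883-45878378 (Grin2d) and chr4:49661611-49845744 (Grin3a). Gria1 and Gria3 are on the plus strand and the other 8 genes on the minus strand. Exons of 7 of the 10 genes overlap an exon of another annotated gene, with the longest overlaps on the opposite strand, 1307 bases of Grin1os with Grin1 and 643 bases of Gm45441 with Grin2d. Whether reads were counted by strand is not given in the sources used here, so reads of these overlapping bases could not be assigned to 1 gene.

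Between 25953296 and 35779977 reads per hippocampal library were counted on genes. Levels are given as normalized CPM, which are counts scaled to a common library size with TMM factors. Mapt, the mouse tau gene, was used to check the genotype labels: the 7 Ntg mice lay between 519 and 642 normalized CPM and the 6 P301S mice between 858 and 1125, so the groups did not overlap. Whether reads of the human transgene were counted on Mapt was not tested, so these values are no measure of mouse tau mRNA alone. Markers of neurons, dentate granule cells and CA1 pyramidal cells were detected in all 13 libraries, with no marker of these lists at 0 counts. The library of P301S mouse 63 stood apart. The summed level of 8 genes that mark cerebellum (Gabra6, Cbln1, Cbln3, Fat2, Zic1, En2, Pcp2 and Car8) was 2186 normalized CPM in this mouse and between 21.9 and 107 in the other 12 mice. Gabra6, the GABA receptor subunit of cerebellar granule cells, had 208 normalized CPM in mouse 63 and at most 2.1 in any other mouse. This list of genes was added after the subunit values of mouse 63 had been seen. The lowest summed level of the 5 CA1 pyramidal cell markers, 326 normalized CPM, was also in mouse 63, with 492 to 1127 in the others. Among markers of other cells, 5 of 8 genes of disease-associated microglia and 1 of 7 astrocyte genes were called higher in P301S mice, and 0 of 6 oligodendrocyte genes were called, with a median log2 fold change of 0.43.

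No subunit gene passed the threshold in P301S compared to Ntg hippocampi. The test was edgeR's quasi-likelihood test with Benjamini-Hochberg adjustment over all 16453 genes, and an adjusted p under 0.05 was called. By this rule 249 genes were called (1.51%), 229 of them higher (1.39%) and 20 lower (0.122%). DESeq2 called 911 (5.54%), 697 of them higher and 214 lower. The log2 fold change of P301S over Ntg was below 0 for 7 of the 10 subunit genes, against 49.6% of all genes tested, and the median was −0.27 for the 10 genes and 0.0013 for all genes. Before adjustment, Gria3 and Grin1 had p under 0.05, both lower in P301S mice, a direction and threshold met by 6.09% of all genes (15.9% in either direction, 9.79% higher). In bulk tissue, fewer cells of a type and less RNA per cell cannot be told apart. The 2 groups of mice overlapped for each of the 10 genes, whereas they were separate for 0.17% of all genes with lower and 0.438% with higher values in P301S mice.

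**Figure D1:**
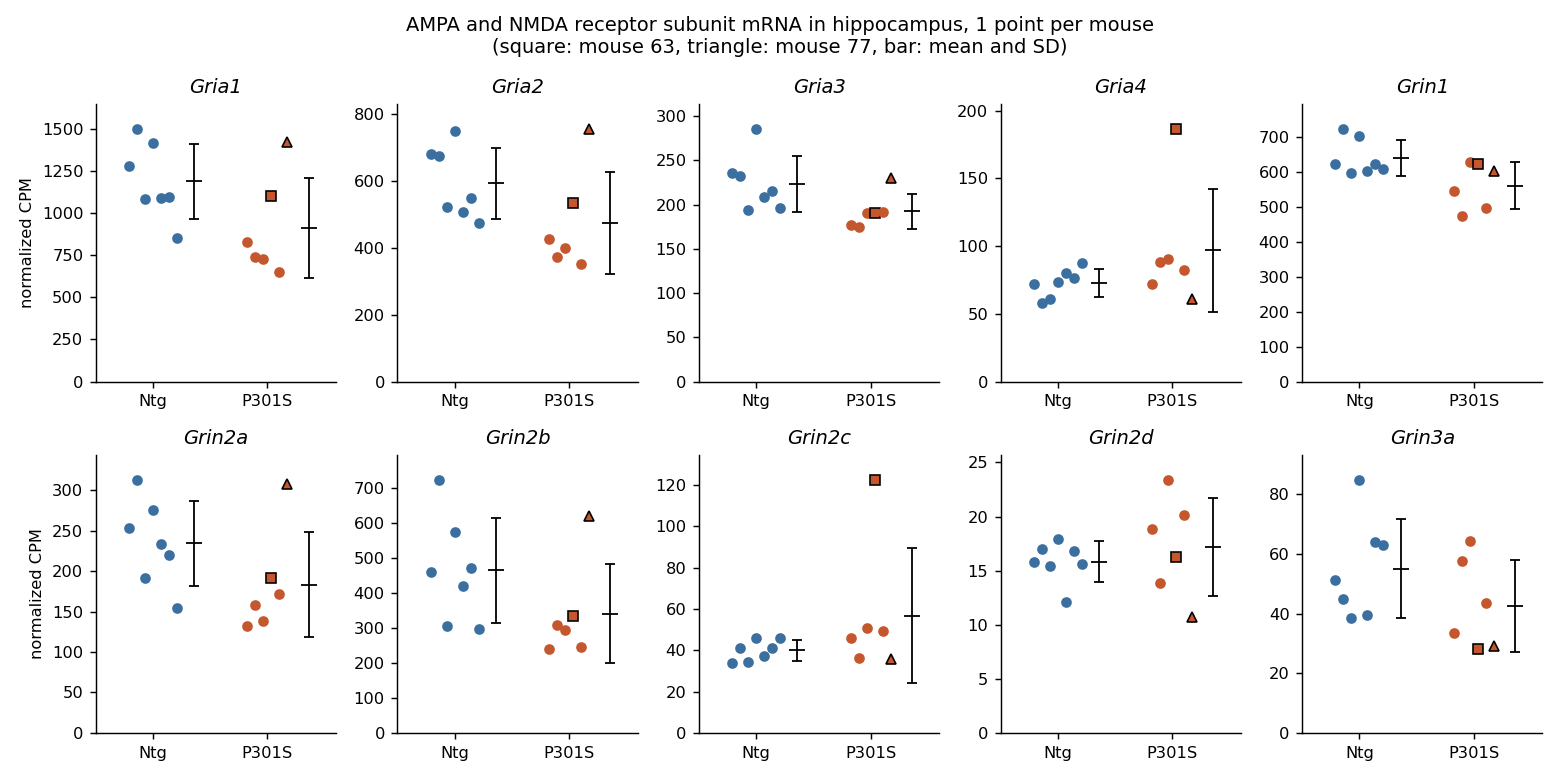
Normalized CPM (y axis, linear from 0) of the 10 subunit genes in each of 7 Ntg and 6 P301S mice (x axis), with 1 point per mouse and bars for mean and SD. P301S mouse 63 (square) is far above all other mice for Gria4 (187) and Grin2c (122), and P301S mouse 77 (triangle) lies among the highest mice for Gria1, Gria2, Grin2a and Grin2b.

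Gria1, which encodes the GluA1 subunit that is inserted at synapses during potentiation, ranged in Ntg mice from 854 through a median of 1094 to 1501 normalized CPM, and in P301S mice from 652 through 782 to 1423. Of the 6 P301S mice, 4 were below all Ntg mice, while mice 63 and 77 lay within the Ntg range. This gave a log2 fold change of −0.38 (standard error 0.18, 95% interval −0.77 to 0.0069, edgeR adjusted p = 0.323).

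Gria2, for the GluA2 subunit, ranged from 473 through a median of 548 to 751 normalized CPM in Ntg and from 352 through 413 to 756 in P301S mice. The same 4 P301S mice (29, 36, 43 and 65) lay below all Ntg mice, and mouse 77 had the highest value of all 13. For Gria2 the log2 fold change was −0.33 (standard error 0.17, 95% interval −0.70 to 0.046, edgeR adjusted p = 0.391).

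Gria3, for the GluA3 subunit and the only X-linked gene of the 10, ranged from 193 through a median of 215 to 285 normalized CPM in Ntg and from 175 through 190 to 230 in P301S mice. All P301S mice except mouse 77 were below the lowest Ntg mouse, although the highest of these 5 had 191. Its log2 fold change was −0.22 (standard error 0.095, 95% interval −0.42 to −0.015, edgeR adjusted p = 0.274).

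Grin1, for the obligatory GluN1 subunit, had the smallest SD relative to its mean among Ntg mice. It ranged from 597 through a median of 622 to 722 normalized CPM in Ntg and from 472 through 573 to 627 in P301S mice. P301S mice 36, 65 and 29 lay below all Ntg mice, and the other 3 lay within the lower part of the Ntg range. Its log2 fold change was −0.19 (standard error 0.082, 95% interval −0.37 to −0.014, edgeR adjusted p = 0.271).

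Grin2a, for the GluN2A subunit of mature synapses, ranged from 155 through a median of 234 to 312 normalized CPM in Ntg and from 132 through 165 to 307 in P301S mice. P301S mice 29 and 43 lay below all Ntg mice, while mouse 77 had the second highest value of the 13. This was a log2 fold change of −0.36 (standard error 0.20, 95% interval −0.78 to 0.067, edgeR adjusted p = 0.416).

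Grin2b, for the GluN2B subunit that prevails early in development and binds CaMKII, ranged from 297 through a median of 460 to 722 normalized CPM in Ntg and from 240 through 302 to 620 in P301S mice. P301S mice 29, 65 and 43 lay below all Ntg mice, and mouse 77 was again second highest. For Grin2b the log2 fold change was −0.45 (standard error 0.25, 95% interval −0.97 to 0.079, edgeR adjusted p = 0.410).

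Grin3a, for the GluN3A subunit that lowers calcium permeability of NMDA receptors, ranged from 38.3 through a median of 51.2 to 84.6 normalized CPM in Ntg and from 28.1 through 38.4 to 64.4 in P301S mice. The 3 P301S mice below all Ntg mice were 63, 77 and 29, a different set from that of the AMPA receptor genes. Its log2 fold change was −0.37 (standard error 0.23, 95% interval −0.86 to 0.13, edgeR adjusted p = 0.487), and −0.27 (standard error 0.23) without mouse 63, the lowest of all 13 mice.

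Grin2d, for the GluN2D subunit, ranged from 12.1 through a median of 15.8 to 17.9 normalized CPM in Ntg and from 10.8 through 17.6 to 23.4 in P301S mice. P301S mice 29, 65 and 43 lay above all Ntg mice and mouse 77 below all of them. A log2 fold change of 0.12 resulted (standard error 0.15, 95% interval −0.21 to 0.45, edgeR adjusted p = 0.782). Counts of Grin2d were the lowest of the 10 genes, at least 344 reads per library, so that counting error alone was 5.39% (as a coefficient of variation) in the library with the fewest.

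**Figure D2:**
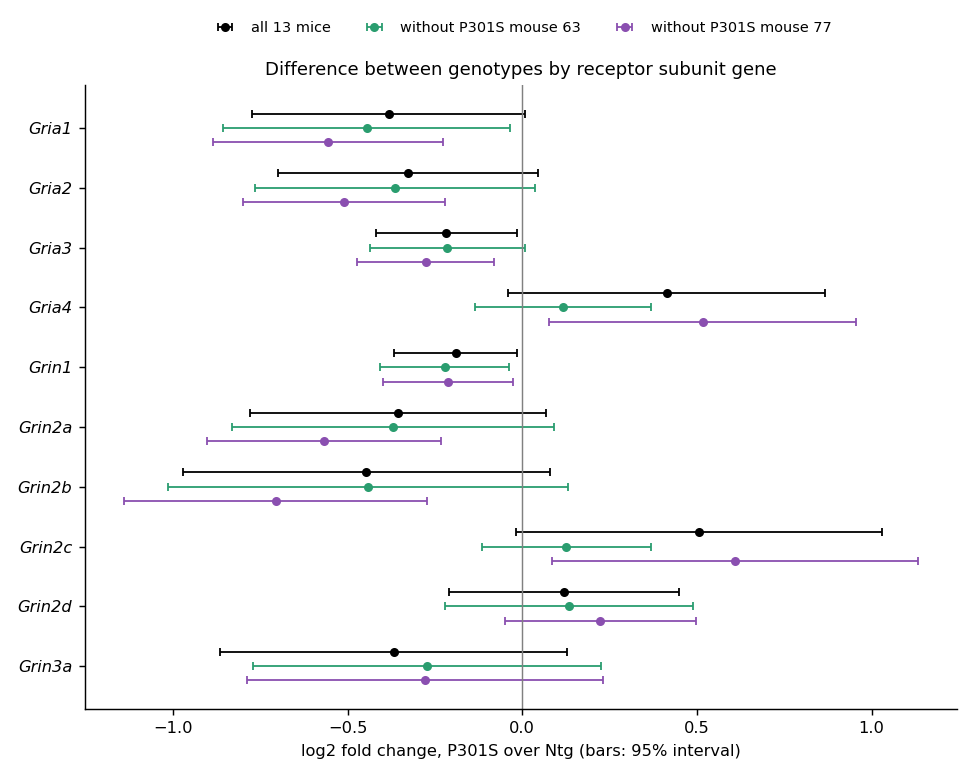
Log2 fold change of P301S over Ntg (x axis) for each subunit gene (y axis), with 95% intervals, from all 13 mice, without P301S mouse 63 and without P301S mouse 77. Without mouse 63, Gria4 and Grin2c moved from 0.41 and 0.51 to 0.12 and 0.13. Without mouse 77, the values of Gria1, Gria2, Grin2a and Grin2b moved to between −0.51 and −0.71.

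Gria4 and Grin2c, the 2 subunit genes with a log2 fold change above 0.4, were far higher in 1 P301S mouse than in any other mouse. Gria4 ranged from 58.1 through a median of 73.6 to 87.3 normalized CPM in Ntg and from 61.1 through 85.2 to 187 in P301S mice, and the second highest P301S mouse had 90.9. Grin2c ranged from 33.7 through 40.8 to 46.1 in Ntg and from 35.9 through 47.6 to 122 in P301S mice, with 50.6 in the second highest P301S mouse. In both genes mouse 63 held the highest value. P301S mice 36 (88.2) and 43 (90.9) for Gria4, and 65 (49.1) and 43 (50.6) for Grin2c, also lay above all Ntg mice. The remaining P301S mice lay within the Ntg range. The log2 fold change of Gria4 was 0.41 (standard error 0.21, edgeR adjusted p = 0.365) with all mice and 0.12 (standard error 0.12, adjusted p = 0.658) without mouse 63. For Grin2c it was 0.51 (standard error 0.24, edgeR adjusted p = 0.332) with all mice and 0.13 (standard error 0.11, adjusted p = 0.609) without mouse 63. With the mean of the cerebellar markers as a covariate, chosen after seeing the data, the log2 fold changes were 0.055 for Gria4 (edgeR adjusted p = 0.897) and 0.060 for Grin2c (adjusted p = 0.902). This mean log2 CPM was 7.69 in mouse 63 and 0.37 to 2.65 in the other mice. The covariate thus mainly sets mouse 63 apart, and its fit is not independent of the fit without that mouse. All 8 cerebellar markers had an unadjusted p under 0.05 and none was called, with a median log2 fold change of 3.82. Without mouse 63, 0 of the 8 had an unadjusted p under 0.05 and the median was 0.36. Mouse 63 was also the highest mouse for Grm4, a metabotropic receptor of cerebellar parallel fibers (136 against 9.9 to 44.4 normalized CPM in the others). The part of cerebellar RNA in the Gria4 and Grin2c values was not tested beyond these fits.

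**Figure D3:**
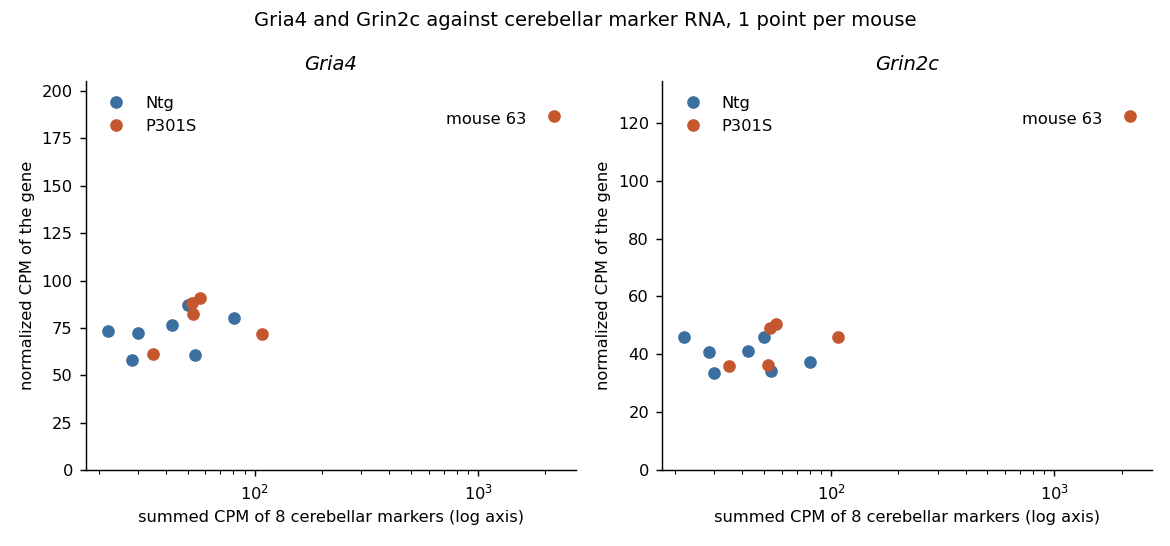
Normalized CPM of Gria4 and Grin2c (y axes, linear from 0) against the summed normalized CPM of 8 cerebellar markers (x axis, log scale), with 1 point per mouse. Mouse 63 is at 2186 on the x axis and the other 12 mice are between 21.9 and 107.

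The promoters of Gria4 and Grin2c are shown as the 250 bases before the RefSeq transcription start (GRCm38.p6). They are written 5′ to 3′ on the minus strand, where both genes are read. Whether these sequences bear on the values of mouse 63 was not tested. Capitals mark GGGCGG, the GC box that SP1-type factors bind, searched on both strands with overlapping matches allowed. The Gria4 window is chr9:4796235-4796484 and the Grin2c window is chr11:115267244-115267493.
Gria4: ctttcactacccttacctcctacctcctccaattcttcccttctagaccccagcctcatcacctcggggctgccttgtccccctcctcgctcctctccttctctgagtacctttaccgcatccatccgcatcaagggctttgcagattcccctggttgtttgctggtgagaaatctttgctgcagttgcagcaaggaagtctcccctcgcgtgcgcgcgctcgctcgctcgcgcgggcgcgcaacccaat
Grin2c: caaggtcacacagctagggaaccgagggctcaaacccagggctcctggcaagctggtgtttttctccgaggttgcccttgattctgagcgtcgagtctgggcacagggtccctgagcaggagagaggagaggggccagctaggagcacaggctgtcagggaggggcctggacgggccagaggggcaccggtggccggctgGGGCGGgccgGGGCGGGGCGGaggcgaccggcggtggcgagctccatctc
The Grin2c window held 3 matches and the Gria4 window held none. The motif was present in 32.7% of the 32851 promoter windows of the same length, and in 1 of the 5 subunit genes with a window in the table (Gria2, Gria4, Grin1, Grin2c and Grin2d). The GC content was 68.8% for Grin2c and 58.8% for Gria4, with a median of 52.4% over all windows.

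The group means of the main forebrain subunits depended on P301S mouse 77. Its values were 1423 normalized CPM for Gria1, 756 for Gria2, 307 for Grin2a and 620 for Grin2b, each the highest or second highest of the 13 mice. Its Mapt level was 1045 normalized CPM, within the P301S range of 858 to 1125. It also had the highest summed level of 5 choroid plexus markers, 5495 normalized CPM against 97.2 to 3875 in the other 12 mice, and of 6 oligodendrocyte markers, 9009 against 3794 to 7733. Its summed level of 7 GABAergic interneuron markers was the lowest, 777 against 849 to 1181. For dentate granule cell markers its sum was 430, above every other P301S mouse except mouse 63, with 197 to 500 in Ntg mice. For CA1 pyramidal cell markers its sum was 776, with 885 in the highest P301S mouse and 668 to 1127 in Ntg mice. The part of these differences in its subunit values was not tested. Without mouse 77, 8 of the 10 genes had an unadjusted p under 0.05, as had 20.3% of all genes in that fit. Of the 10 genes, 0 were called. Among the 8, Gria4 (log2 fold change 0.52) and Grin2c (0.61) were higher in P301S mice, with mouse 63 still included, and the others were lower. The log2 fold changes were −0.56 for Gria1 (edgeR adjusted p = 0.0646), −0.51 for Gria2 (adjusted p = 0.0580), −0.57 for Grin2a (adjusted p = 0.0638) and −0.71 for Grin2b (adjusted p = 0.0705). Mouse 77 was singled out by these values, so the fit without it is a description of how much 1 animal weighed and no independent test.

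Library depth and regional markers also differed among the mice. The 3 libraries with the most reads (Ntg mice 46 and 61 and P301S mouse 77, at 33202374 to 35779977 reads) held the 3 highest values of Gria1, Grin2a and Grin2b. With the log2 total count as a covariate, chosen after seeing the data, the median log2 fold change of the 10 genes was −0.25, 6 had an unadjusted p under 0.05 (17.2% of all genes) and 0 were called. The 6 dentate granule cell markers had a median log2 fold change of −0.58, with a summed level of 197 to 500 normalized CPM in Ntg and 153 to 514 in P301S mice. The highest value was that of mouse 63, of which 326 came from Calb1, a gene that cerebellar Purkinje cells also express and that had at most 165 in any other mouse. Without mouse 63 the P301S maximum was 430, in mouse 77, and the median log2 fold change was −0.63. The 5 CA1 pyramidal cell markers had a median of −0.33, with summed levels of 668 to 1127 in Ntg and 326 to 885 in P301S mice, and no gene of either list was called. Without mouse 63 the CA1 range of P301S mice was 492 to 885 and the median −0.21. With the mean of the dentate markers as a covariate the median of the subunit genes was −0.12, and with that of the CA1 markers it was −0.055, both chosen after seeing the data. With the mean of 8 general neuronal markers as a covariate it was −0.23, and 5 subunit genes had an unadjusted p under 0.05 (14.3% of all genes). The 8 general neuronal markers had a median log2 fold change of −0.044 and summed levels of 7550 to 9790 normalized CPM in Ntg and 6640 to 9240 in P301S mice. Of these 8, Map2 (−0.35) and Nefl (−0.31) were lower with an unadjusted edgeR p under 0.05 (6.09% of all genes). None of the 8 was called. The 7 thalamus markers summed to 62.7 to 153 normalized CPM in Ntg (median 73.4) and 92.8 to 158 in P301S mice (median 101). The part of regional composition in the subunit values was not tested beyond these fits.

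Ratios between subunits within a mouse, which do not depend on library scaling, were tested by exact permutation over all 1716 splits of the mice (two-sided, smallest possible p 0.000583), with adjustment over the 4 ratios. Counts were not corrected for transcript length, so the ratios compare mice and not amounts of the 2 subunits. The Grin2a to Grin2b ratio of counts, which rises as synapses mature, ranged from 0.432 through a median of 0.522 to 0.627 in Ntg and from 0.471 through 0.530 to 0.698 in P301S mice. The groups overlapped, and the log2 difference was 0.079 (exact p = 0.477, adjusted p = 0.477). The Gria1 to Gria2 ratio ranged from 1.81 to 2.23 in Ntg and from 1.81 to 2.07 in P301S mice, with a log2 difference of −0.057 (exact p = 0.296, adjusted p = 0.395). The Gria3 to Gria2 ratio ranged from 0.344 through 0.380 to 0.413 in Ntg and from 0.305 through 0.441 to 0.544 in P301S mice. Here 4 P301S mice lay above all Ntg mice and 1 lay below them, and the log2 difference was 0.15 (exact p = 0.252, adjusted p = 0.395). The Grin2b to Grin1 ratio had medians of 0.738 in Ntg and 0.518 in P301S mice, with overlapping ranges and a log2 difference of −0.27 (exact p = 0.255, adjusted p = 0.395). None of the 4 ratios passed the threshold. Without mouse 77 the log2 differences of the last 2 ratios were 0.24 and −0.44 (exact adjusted p = 0.0808 each).

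Split by the labelled sex, Gria1, Gria2, Grin2a and Grin2b had lower means in female P301S than in female Ntg mice, while means of males were close between genotypes. Mouse 29, a male P301S mouse, was nevertheless below all Ntg mice for each of these genes, and the lowest of all 13 for Grin2a and Grin2b. Gria1 had 1279, 1501 and 1094 normalized CPM in the 3 female Ntg mice and 737, 725 and 652 in the 3 female P301S mice. The female P301S mice lay below all female Ntg mice for these 4 genes, as for 17.2% of all genes tested. Gria3 was also separate in females, with 175 to 191 normalized CPM in P301S and 215 to 236 in Ntg mice. Summed dentate granule cell markers were separate in females too, at 153 to 187 in P301S and 271 to 500 in Ntg mice. In males these sums overlapped, at 246 to 514 in P301S and 197 to 398 in Ntg mice. Summed CA1 markers overlapped in females, at 608 to 885 in P301S and 713 to 846 in Ntg mice. The part of these marker differences in the subunit values by sex was not tested. Mean Gria1 in males was 1112 in Ntg and 1118 in P301S mice. The log2 difference between genotypes was −0.86 in females and −0.0038 in males for Gria1, −0.75 and 0.0046 for Gria2, −0.74 and −0.080 for Grin2a, and −0.93 and −0.064 for Grin2b. Grin3a showed the opposite order, with a log2 difference of 0.048 in females and −0.83 in males, where mice 63, 77 and 29 had the 3 lowest values of all 13 mice. Male P301S mice lay below all male Ntg mice for 5.79% of all genes. The interaction of sex and genotype was tested across all genes with edgeR, and 0 genes passed after adjustment (0%), while 23.7% had an unadjusted p under 0.05. For Gria1 the interaction (male minus female) was 0.88 on the log2 scale (standard error 0.28, edgeR adjusted p = 0.112) and for Gria2 it was 0.78 (standard error 0.28, edgeR adjusted p = 0.135). It was −0.95 (standard error 0.37, edgeR adjusted p = 0.150) for Grin3a. With DESeq2, 1092 genes (6.64%) passed for the interaction, among them Gria1 (adjusted p = 0.0373) and no other subunit gene. Without P301S mouse 29, a male, edgeR called 1648 genes (9.95%), among them Gria1 (adjusted p = 0.0305) and Gria2 (adjusted p = 0.0419). Mouse 63 and mouse 77 are both males, and without mouse 77 the interaction of Gria1 was 0.67 (edgeR adjusted p = 0.231).

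**Figure D4:**
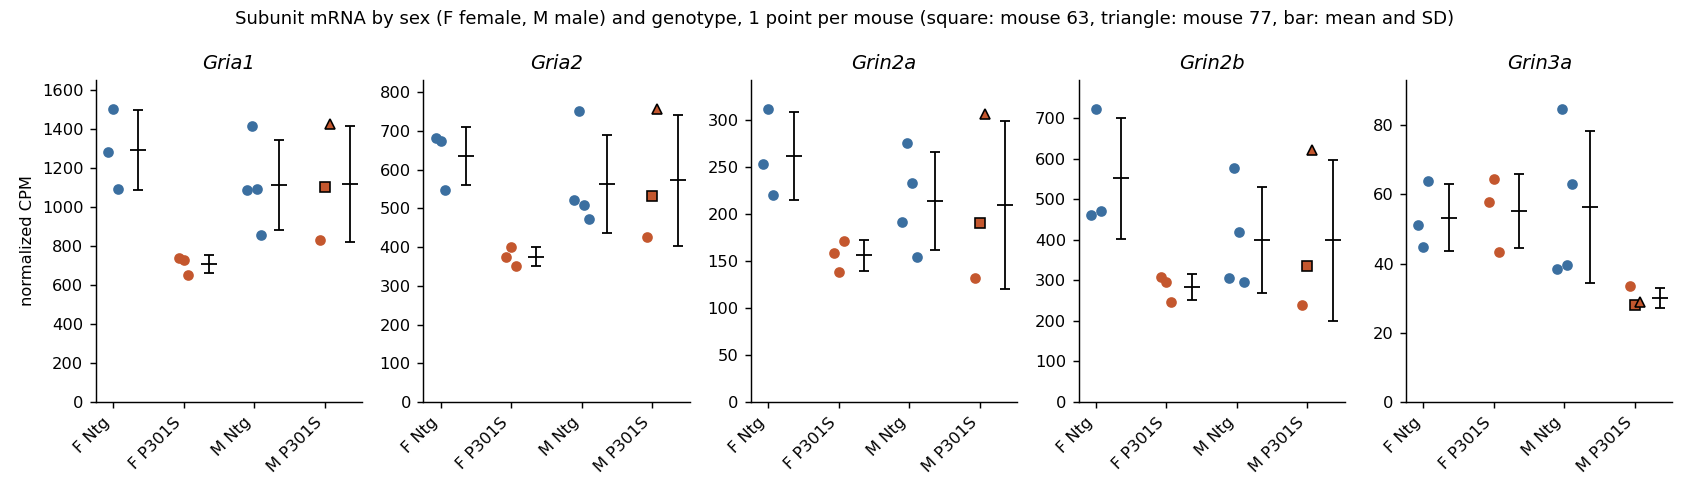
Normalized CPM (y axes, linear from 0) of Gria1, Gria2, Grin2a, Grin2b and Grin3a by sex and genotype (x axis), with 1 point per mouse and bars for mean and SD. In females the P301S points lie below the Ntg points for the first 4 genes, and in males the groups overlap for these. For Grin3a the 3 male P301S mice are the lowest.

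Among genes that work with these receptors, 59 of 60 in 4 lists were tested, 39 had a log2 fold change below 0, and 1 was called, a share near that of all genes (1.51%). The median of the 59 was −0.18. Before adjustment, 19 of the 59 were lower with p under 0.05 in edgeR (6.09% of all genes), and 4 were higher (9.79% of all genes). Grin3b, the remaining NMDA receptor gene, had between 0 and 13 counts per library and was not tested. Of the 13 AMPA receptor auxiliary subunits, 8 were below 0 and 1 was called, with a median log2 fold change of −0.14. The called gene was Cnih2, for a cornichon protein that binds AMPA receptors and slows their closing. Cnih2 ranged from 344 through a median of 399 to 507 normalized CPM in Ntg and from 216 through 284 to 338 in P301S mice. All P301S mice were below all Ntg mice, a pattern seen in 0.17% of all genes. Its log2 fold change was −0.50 (standard error 0.11, edgeR adjusted p = 0.0437). With 1 mouse left out it was −0.56 to −0.43 (edgeR adjusted p 0.0160 to 0.111), and the call was lost without any 1 of Ntg mice 35, 46, 61, 62, 68 and 71 or P301S mice 29, 36 and 65. It was also lost with voom (−0.50, adjusted p = 0.127), with the fold threshold, and with a covariate for sex (−0.50, edgeR adjusted p = 0.0602), neuronal (−0.51, adjusted p = 0.133), homeostatic microglial (−0.45, adjusted p = 0.266), dentate (−0.37, adjusted p = 0.0566) or CA1 markers (−0.50, adjusted p = 0.601).

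Of the 22 postsynaptic scaffold and trafficking genes, 19 had a log2 fold change below 0 and none was called, with a median of −0.24. Among the 19, 9 had an unadjusted p under 0.05, a direction and threshold met by 6.09% of all genes. Those with the smallest p were Dlg4, for the scaffold PSD-95, at −0.26 (standard error 0.074, edgeR adjusted p = 0.0876), and Camk2a, for the alpha subunit of CaMKII, at −0.45 (standard error 0.15, edgeR adjusted p = 0.132). Dlg4 had 985 to 1170 normalized CPM in Ntg and 813 to 1016 in P301S mice, and 5 of 6 P301S mice were below all Ntg mice. Of the 59 genes in the 4 lists DESeq2 called 4, near its share of all genes (5.54%), and limma voom called 0, with 0.0669% of all genes.

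Of the 14 other glutamate receptor genes tested, 8 were below 0 and none was called, with a median of −0.090. Grm5, for the metabotropic receptor mGluR5, was at −0.40 (standard error 0.14, edgeR adjusted p = 0.160), and Grid1, for the delta receptor GluD1, at −0.19 (standard error 0.073, edgeR adjusted p = 0.200). Of the 10 glutamate transporter and metabolism genes, 4 were below 0 and none was called, with a median of 0.054. Slc1a1, for the neuronal glutamate transporter EAAC1, was at −0.34 (standard error 0.081, edgeR adjusted p = 0.0527), and Slc38a1, for a glutamine transporter, at 0.23 (standard error 0.076, edgeR adjusted p = 0.139).

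**Figure D5:**
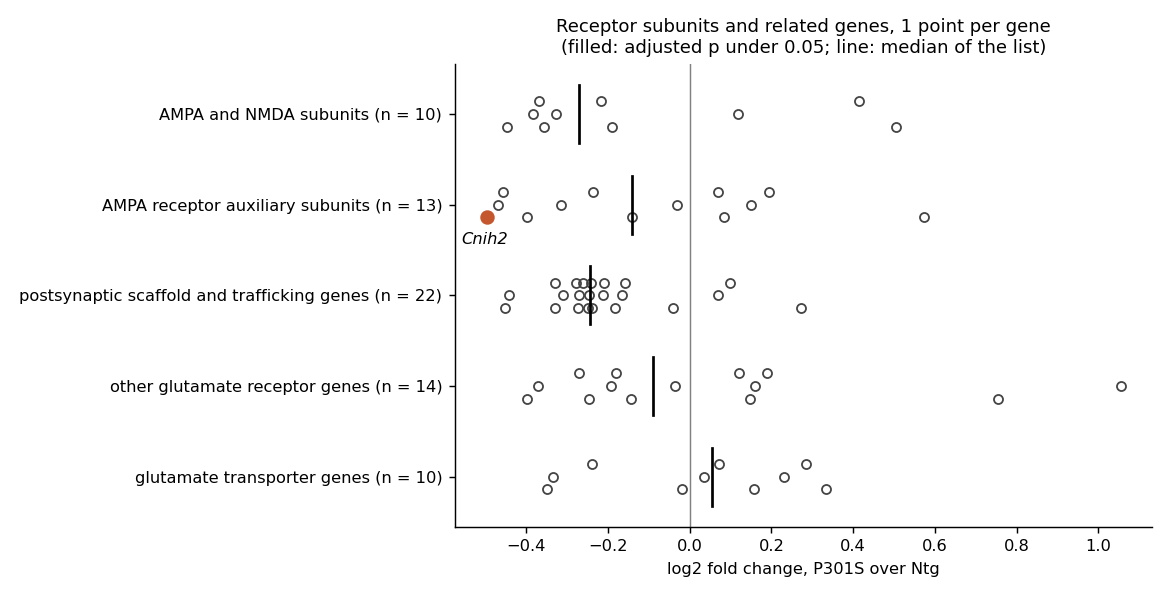
Log2 fold change of P301S over Ntg (x axis) for the 10 subunit genes and the 59 related genes tested, by list (y axis), with 1 point per gene and a line at each median. The medians are −0.27 for the subunit genes, −0.14, −0.24 and −0.090 for the next 3 lists, and 0.054 for the transporters. Cnih2 is the only filled point.

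With the group means removed, Gria1, Gria2, Grin2a and Grin2b varied together over the 13 mice. Gria1 and Gria2 had a Pearson r of 0.964, Grin2a and Grin2b of 0.924, and Gria1 and Grin2a of 0.873, on log2 CPM. Gria4 and Grin2c had an r of 0.867, and of 0.432 over the 12 mice without mouse 63. Over those 12 mice Grin2c had an r of 0.749 with Grin2d, and Gria4 an r of 0.687 with Grin3a. Grin2d and Grin2a had the most negative r of the subunit pairs over all 13 mice, −0.478. Without mouse 63 the most negative r was −0.767, for Gria1 and Gria4, a pair with −0.115 over all 13 mice. Across all tested genes, those most like Grin1 were Arid1a, Prdm15 and Ncoa2 (r = 0.958, 0.944 and 0.936). Those most like Gria3 were St8sia3, Slc1a1 and Fam171b (r = 0.961, 0.938 and 0.915). All of these genes were read from the same 13 libraries, which differed in depth and in regional markers.

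In primary microglia, which do not form synapses, 9 of the 10 genes had between 0 and 7 counts in each of the 18 libraries, where between 17037459 and 25174764 reads were counted. Each of these 9 genes exceeded 3 counts, taken as the floor of detection, in at most 6 libraries. Grin2d was the exception, with 9 to 49 counts (median 29.5) above the floor in all 18 libraries. Its normalized CPM were 1.93 ± 0.337 (SD, n = 3) in wild-type cells with vehicle, 2.0 ± 0.474 with tau fibrils and 0.807 ± 0.283 with HT-DNA. In Cgas knockout cells they were 1.01 ± 0.265 with vehicle, 1.44 ± 0.178 with tau fibrils and 1.30 ± 0.152 with HT-DNA (SD, n = 3 each). No test was run on these counts. Exons of Gm45441 overlap 643 of the 6658 exonic bases of Grin2d on the opposite strand. Whether reads were counted by strand is not given, so reads of these bases could not be assigned to 1 gene.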

How the data were processed

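RNA-seq was done on hippocampi of 13 mice and on 18 primary microglial cultures. The authors deposited raw counts of reads per Ensembl gene in 1 table for each material, without normalization. The submitters' processing notes name the GRCm38 build, edgeR and limma. The aligner and counter are not given in the sources used here. For hippocampal RNA the labels give a kit from Zymo with 3′ end libraries (QuantSeq), while the study's methods give RNeasy columns, a disagreement that could not be settled. Counts from 3′ end libraries do not scale with transcript length. Replicates are separate mice by their numbers. Any pair of mice of a group differed by more than sampling noise.

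Groups were taken from the sample titles. Counts were filtered with filterByExpr, scaled with TMM and tested with the quasi-likelihood F test of edgeR 4.0.16 in R 4.3.3, with Benjamini-Hochberg adjustment over 16453 genes and calls at an adjusted p under 0.05. Ratios used counts plus 0.5. Gene names came from the microglial table. Related genes named in the text were those called in each list (up to 4), otherwise the 2 with the smallest p. The 3 genes most like each of the 2 subunit genes with the smallest p were named by Pearson r. The subunit genes and all lists were chosen with earlier results of these data known. Alternatives were DESeq2 1.42.0, voom of limma 3.58.1, RLE scaling, no filter, covariates, a fold threshold of 0.5 and each mouse left out. Covariates for dentate, CA1 and cerebellar markers and for depth were added after seeing the data. The fits were tested on simulated data. Floors and counting errors cover counting error only. Microglial counts were described without a test.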

Additional observations from a re-analysis of the deposited data

Results flagged for a closer look

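Of 28 groups of 6 or 7 mice examined with Dixon's test (10 genes and 4 ratios in 2 genotypes), 6 held a mouse far from the others of its group, and chance flags about 1 group in 20. In P301S mice these were mouse 77 for Gria3 (230 normalized CPM), Grin2a (307) and Grin2b (620), and mouse 63 for Gria4 (187) and Grin2c (122). In Ntg mice it was mouse 62 for Grin2d (12.1 normalized CPM). Grin2d also had a median of 29.5 counts over the 18 microglial libraries, which are outside the comparison of genotypes and where the other 9 subunit genes had medians of 0 to 2 counts.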

How the results depend on the processing

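No subunit gene was called under any of 12 alternative settings or without any 1 of the 13 mice, and 7 or 8 of the 10 had a log2 fold change below 0. A fit without mice 63 and 77 together was tried and called some subunit genes. That fit was not kept, because mouse 77 had been picked by its measured values. Signs turned for Grin2d with the dentate markers as covariate (−0.0090) and, with the CA1 markers, for Gria4 (−0.056), Grin2c (−0.024) and Grin3a (0.025). In male mice only, the log2 differences turned for the ratios Grin2a to Grin2b (−0.016), Gria3 to Gria2 (−0.14) and Grin2b to Grin1 (0.025). The count of all genes called, 249, became 911 with DESeq2, 11 with voom, 138 with sex, 10 with neuronal markers, 21 with homeostatic microglial markers, 4 with CA1 markers and 433 with cerebellar markers as covariate. Leaving out 1 mouse gave 946 without P301S 43, 691 without P301S 63, 462 without P301S 77, 216 without Ntg 55 and 14 to 26 without any other (14 without Ntg 35 or 61). Calls in the 4 related lists, 1 of 59, became 4 with DESeq2, 2 with RLE scaling, 3 with depth as covariate, 0 with voom, the fold threshold and the sex, neuronal, microglial or CA1 covariates, and 0 to 7 with 1 mouse left out (7 without P301S 43, 5 without P301S 77, 2 without P301S 63). Calls for the interaction of sex and genotype, 0 genes, became 1092 (1 subunit gene) with DESeq2, 58 without the filter, and 0 to 1648 (0 to 2 subunit genes) with 1 mouse left out, highest without P301S 29, with 44 without P301S 36 and 3 without Ntg 55. With 1 mouse left out, the ratio differences ranged from 0.0072 to 0.13, −0.081 to −0.031, 0.073 to 0.24 and −0.44 to −0.18 in the order of the text, without a call. The share of calls that were higher in P301S mice was 92.0%, and 76.5% with DESeq2, 71.6% with depth and 72.5% with dentate markers as covariate. The cause of these shifts was not tested. The 13 hippocampal libraries carry mouse numbers that the genotypes do not share. No paired analysis was possible because no mouse number occurs in both groups, and the microglial values come from no test. Precision was set by 6 and 7 mice: the 95% intervals of all subunit genes except Gria3 and Grin1 included 0, and they extended from −0.97 (Grin2b) to 1.03 (Grin2c).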
